A study of Mus musculus with 2 samples.

Results

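Aminoacyl-tRNA synthetases are the enzymes that load each transfer RNA with its amino acid. The set described here holds 36 synthetase genes, chosen by name from a table of 21542 mouse genes: 20 genes of the cytosolic enzymes and 16 of the mitochondrial enzymes. All 36 were measured, each in 1 row of the table, and all 36 averaged 50 reads or more over both libraries, the minimum used below for counting genes. The RNA came from MIN6 cells, a mouse insulinoma line of the C57BL/6 strain that secretes insulin and stands in for pancreatic beta cells. One library came from cells transfected with a control vector, called control cells below. The other came from cells given a plasmid that expresses the glucocorticoid receptor (GR, gene Nr3c1), called GR cells. Both were transfected with Lipofectamine 2000 in high-glucose medium with serum. Which GR cDNA the plasmid held, when the cells were harvested and whether a glucocorticoid was added were not given in the sources used here. There was 1 library per group, so no difference between the vectors has a replicate check.

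Charging takes place in 2 compartments. Cytosolic synthetases supply the ribosomes that read nuclear messages, and a separate set, encoded in the nucleus and imported, supplies the ribosomes of the mitochondrion. Gars (glycine) and Kars (lysine) each encode both forms, Eprs joins the glutamate and proline enzymes in 1 chain, and phenylalanine needs the subunits Farsa and Farsb. Qars (glutamine) works in the cytosol, and mitochondria reach glutamine-loaded tRNA through Ears2 and an amidotransferase. Several cytosolic enzymes sit in a multisynthetase complex. Beta cells, which make large amounts of proinsulin, depend on this supply, and when amino acids or folding capacity run short the transcription factor ATF4 raises many cytosolic synthetase genes in many cell types.

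The libraries were close in depth, with 18537326 reads over genes in control cells and 18525668 in GR cells. Nr3c1, the transfected gene, had 2645 reads in control cells and 5202 in GR cells, a fold of 1.97 (95% interval 1.88 to 2.07); these counts do not separate the vector from the cells' own gene. The 9 beta cell markers held 917354 and 867887 reads, with at least 8338 control reads each. Ins2 held the most, 407986 and 373033 (fold 0.917). Folds were also below 1 for Ins1, Iapp, Nkx6-1 and Chga, and above 1 for Pdx1 (1.04), Mafa, Slc2a2 and Slc30a8. Measured markers of other cells were sparse beside the beta cell markers. Gcg and Sst held 629 and 737 reads together, Col1a1 and Pecam1 63 and 73, and Ptprc and Cd68 26 and 22. Most of the sum of Gcg and Sst was Gcg, with 537 and 623 reads (fold 1.16, 1.04 to 1.31). Ppy, Col3a1 and the exocrine markers Cpa1, Prss1 and Krt19 were not measured. The part of other cells in the results below was not tested. In bulk RNA, fewer cells of a type and less RNA per cell cannot be told apart.

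The promoter windows matched for the synthetase genes differ by compartment in 1 respect, which is set out first. It concerns ATF4, which binds a core written TGATGNAA, where N is any base. RefSeq promoter windows (GRCm38.p6, 250 bases before the start to 50 after) were matched for 27 of the 36 genes, 13 cytosolic and 14 mitochondrial. No window was matched for Cars, Hars, Lars, Nars, Rars, Vars, Wars, Hars2 or Pars2. The core, searched on both strands, occurred in 5 of the 13 cytosolic windows (38.5%) and 0 of the 14 mitochondrial windows. Of all 32851 RefSeq windows, 3.97% held it. For each of these genes, 1 cytosolic match, the nearest to the start, is shown with 10 bases on each side, along the gene's strand, with the core in capitals; in all but Yars the core reads along the opposite strand. None was found for Dars, Eprs, Farsa, Farsb, Kars, Mars, Qars or Sars in these windows.
Aars, chr8:111033841-111033868, plus strand: gcgggtcactTTTCATCAgagcgctctg
Gars, chr6:55037961-55037988, plus strand: ggctgcgctaTTTCATCAtgcaccgggc
Iars, chr13:49682127-49682154, plus strand: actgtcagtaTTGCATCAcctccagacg
Tars, chr15:11399656-11399683, minus strand: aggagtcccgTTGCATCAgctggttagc
Yars, chr4:129189896-129189923, plus strand: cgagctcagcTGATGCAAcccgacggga

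The first base of the core shown lay 30 bases before the RefSeq start in Gars and 15 before it in Tars. In Yars it lay 3 bases after the start, in Iars 7 and in Aars 9. These genes with a core had folds, GR over control, from 0.995 for Aars to 1.05 for Tars, and 0 of the 5 passed the library test explained below. The 8 cytosolic genes with a window and no core had folds from 0.952 to 1.13, with 1 past that test. Vars and Wars, both called lower by that test, had no window and stand in neither group. The glucocorticoid response element that GR binds as a dimer, searched as GNACA and TGTNC with 3 free bases between them (a palindrome, so the same on both strands), was found in 0 of the 27 genes' windows and in 0.475% of all windows. A match or its absence in these windows describes letters only.

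Synthetase transcripts of the cytosol were far more abundant than those of the mitochondrion in both libraries. Levels between genes are compared as RPKM, the reads scaled to the length of the longest annotated transcript and to the library size. The median cytosolic gene stood at 64.7 RPKM in control cells and 63.2 in GR cells. The median mitochondrial gene stood at 8.75 and 7.73, so the ratio of medians was 7.39 and 8.18. For scale, the median gene averaging 50 reads or more stood at 11.9 RPKM in each library. All 20 cytosolic genes and 4 of the 16 mitochondrial genes (Lars2, Rars2, Yars2 and Sars2) lay above that median in both. With the union of a gene's exons as its length the ratio was 6.70 and 7.22, and with the mean of its coding transcripts 7.92 and 7.91, so the higher ratio in GR cells depended on the length. With the union of exons, Qars lay below the median gene in both libraries.

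**Figure D1:**
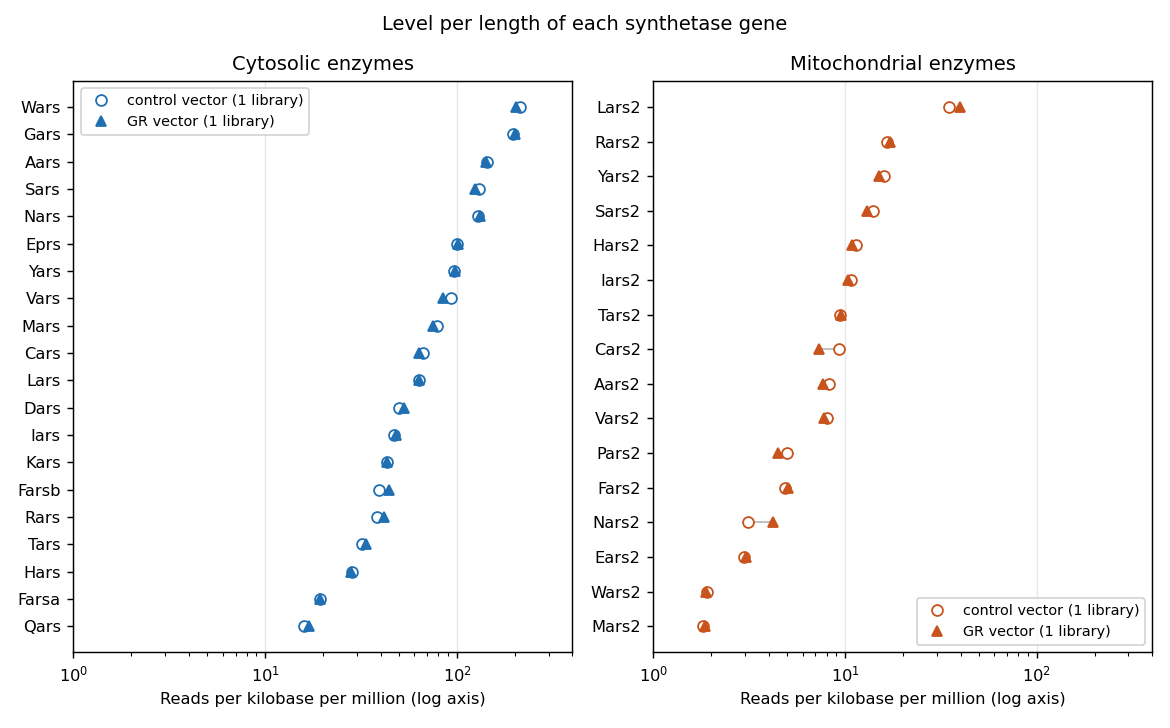
Level of each synthetase gene in RPKM, scaled to the longest transcript and to library size (log axis), in control cells (open circles) and GR cells (triangles), 1 library each. Cytosolic genes ran from 16.0 (Qars) to 212 (Wars) in control cells, and mitochondrial genes from 1.82 (Mars2) to 34.9 (Lars2).

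Among the cytosolic genes, the most abundant by the longest transcript were Wars, the tryptophan enzyme, which is also known as an interferon-induced gene, and Gars. Wars had 212 RPKM in control cells and 202 in GR cells, and Gars had 196 and 199.8. Aars (alanine) followed with 143 and 142, although it had the most reads of all members, 15283 and 15158. Exons of other genes, mainly Exosc6, cover 15.1% of the exon bases of Aars, 14.3% on the same strand. How reads there were counted was not given in the sources used here, so the count of Aars is uncertain. Wars and Gars also led with the union of exons, whereas with coding transcripts Sars led in control cells (261 RPKM) and Aars in GR cells (254). The low end by the longest transcript held Qars (909 and 956 reads, 16.0 and 16.9 RPKM), Farsa (1203 and 1187 reads, 19.4 and 19.2 RPKM) and Hars, the histidine enzyme (1051 and 1036 reads, 28.5 and 28.1 RPKM). The 2 subunits of the phenylalanine enzyme, which assemble in equal numbers, thus differed at the transcript level: Farsb had 39.1 and 44.2 RPKM, above Farsa in both libraries and with each of the 3 lengths.

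Lars2, the mitochondrial leucine enzyme, had the highest level of the mitochondrial members by the longest transcript, with 34.9 RPKM in control cells and 39.9 in GR cells, above 4 cytosolic genes (Tars, Hars, Farsa and Qars) in each library. This place depended on the length. With the union of exons Lars2 had 12.2 RPKM in control cells, below Yars2 at 14.3, and lay above 1 cytosolic gene (Qars). With coding transcripts it had 78.8 RPKM there, the highest mitochondrial level, and lay above 9 cytosolic genes. Rars2 (arginine) had 571 and 593 reads, or 16.5 and 17.2 RPKM, and Yars2 (tyrosine) 833 and 783 reads, or 16.0 and 15.1 RPKM. At the other end by the longest transcript were Ears2 (glutamate, 270 and 276 reads, 2.97 and 3.04 RPKM), Wars2 (tryptophan, 155 and 154 reads, 1.89 and 1.89 RPKM) and Mars2 (methionine, 382 and 389 reads, 1.82 and 1.86 RPKM).

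For the amino acids with a member in both compartments, the cytosolic gene was set beside its mitochondrial counterpart. The cytosolic gene was higher per length in 17 of 17 pairs of members in each library, with each of the 3 lengths. By the longest transcript the ratio in control cells had a median of 8.04 and ran from 1.81 for Lars over Lars2 to 112 for Wars over Wars2. It was 43.2 for Mars over Mars2, 41.4 for Nars over Nars2 and 33.5 for Eprs over Ears2. Low ratios were those of Rars over Rars2 (2.33), Hars over Hars2 (2.50) and Tars over Tars2 (3.40). The tryptophan pair had the highest ratio with every length (126 with the union of exons, 71.1 with coding transcripts). The lowest pair in control cells depended on the length: with the union of exons it was Rars over Rars2 (2.26), with Lars over Lars2 at 3.82, and with coding transcripts it was again Rars over Rars2 (1.37), with Lars over Lars2 at 1.44 and Tars over Tars2 at 1.46. Eprs over Ears2 moved to 11.0 with the union of exons and to 16.1 with coding transcripts, and the median ratio to 5.07 with coding transcripts. By the longest transcript in GR cells the median ratio was 8.73, the extremes were the same pairs (1.58 and 107), and the asparagine pair stood at 31.6. Hars and Hars2 lie head to head and share 195 exon bases on opposite strands, so some of their reads can be exchanged, since the handling of strand was not given in the sources used here.

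**Figure D2:**
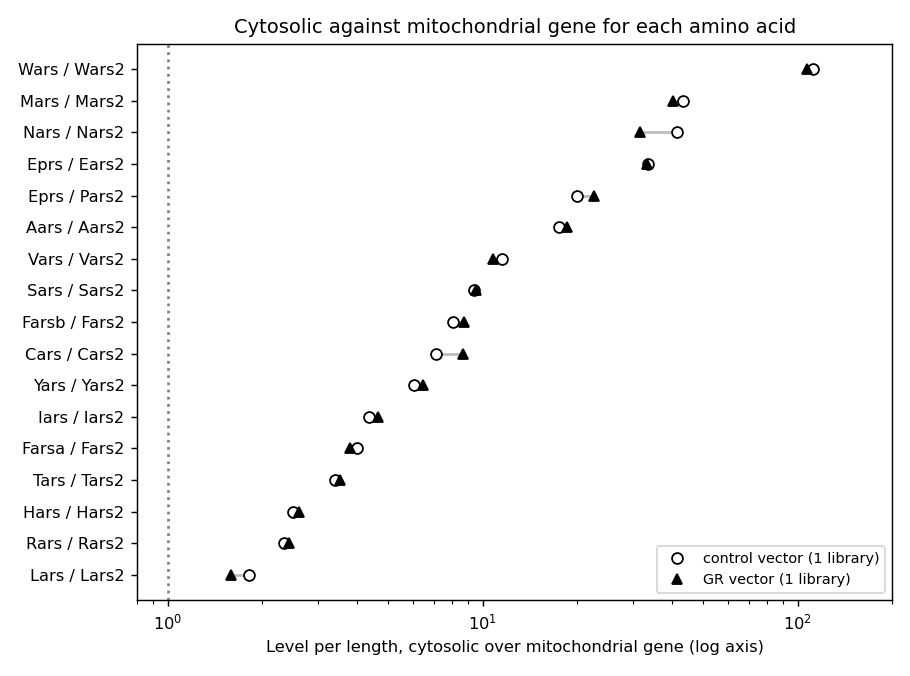
Level per length of the cytosolic gene divided by that of its mitochondrial counterpart (log axis), with the longest transcript as length, in control cells (open circles) and GR cells (triangles), 1 library each. All 17 pairs lie above 1 in both libraries, from 1.81 for Lars over Lars2 to 112 for Wars over Wars2 in control cells; the lowest pair changes with the length used.

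Between the 2 vectors, the synthetase genes as a whole stayed close to equal, and a few genes differed by more than counting error. Cytosolic genes together held 102667 reads in control cells and 101604 in GR cells, 0.554% and 0.548% of all reads. The fold of these sums was 0.993 (95% interval 0.984 to 1.00). Mitochondrial genes together held 10158 and 10265 reads, 0.0548% and 0.0554% of all reads, with a fold of 1.01 (0.986 to 1.04). Without Lars2, the mitochondrial member with the most reads, that fold was 0.970, with Cars2 (541 and 422 reads) still in the sum. These intervals are exact Clopper-Pearson intervals and cover counting error only.

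The median log2 fold, GR over control, was 0.0075 for cytosolic genes and -0.03 for mitochondrial genes, beside 0.0037 over the 12119 genes averaging 50 reads or more. Of the cytosolic genes 11 lay above 0 and 9 below, and of the mitochondrial genes 7 above and 9 below. Cytosolic log2 folds ran from -0.14 to 0.18 and mitochondrial ones from -0.35 to 0.43. The mitochondrial genes were less read (median of 487 mean reads against 4128), and their counting intervals were wider: the upper bound of the fold was a median of 1.29 times the lower bound, against 1.09 times in the cytosolic genes.

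A fold of 1.1 was passed upward by 3 members (Nars2, Lars2 and Farsb) and downward by 3 (Cars2, Pars2 and Vars). Over all genes averaging 50 reads or more, 12.5% passed it upward and 12.4% downward, 24.9% in all, against 16.7% of the members. Members averaging 500 reads or more passed it in 3 of 27 cases (11.1%), beside 11.2% of all genes read that well. The share of synthetase genes past this fold was thus near or below the background.

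The library test asks whether the reads of a gene differ between these 2 libraries beyond counting error. It is an exact two-sided binomial test with Benjamini-Hochberg adjustment over all 21542 genes, and it compares the libraries, not the conditions. It called 3 members higher in GR cells (Lars2, Farsb and Nars2) and 3 lower (Vars, Cars2 and Wars). The background was 2.67% of genes higher and 1.85% lower, 4.52% in all, among genes averaging 50 reads or more (2.72% among all genes), against 16.7% of the members. At 500 reads or more the members' share was 14.8% (4 of 27) and the background 5.99%. By compartment, it called 3 of 20 cytosolic genes (15%) and 3 of 16 mitochondrial genes (18.75%). The test can call deeply read genes at smaller folds, and the part of depth in these shares was not tested. With the trend of the fold on transcript GC content removed, the test called 1 member higher (Lars2) and 1 lower (Cars2), beside 1.06% of genes averaging 50 reads or more called higher and 0.817% lower, 1.87% in all. By the counting interval alone, 11 members left out 1 (5 higher, 6 lower), which is 30.6% of members beside 18.7% of genes. In the authors' deposited table an adjusted p under 0.05 was reached by 0 members (every one was at 1), beside 0.0186% of all genes, and the lowest unadjusted p among members was 0.329, for Nars2.

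**Figure D3:**
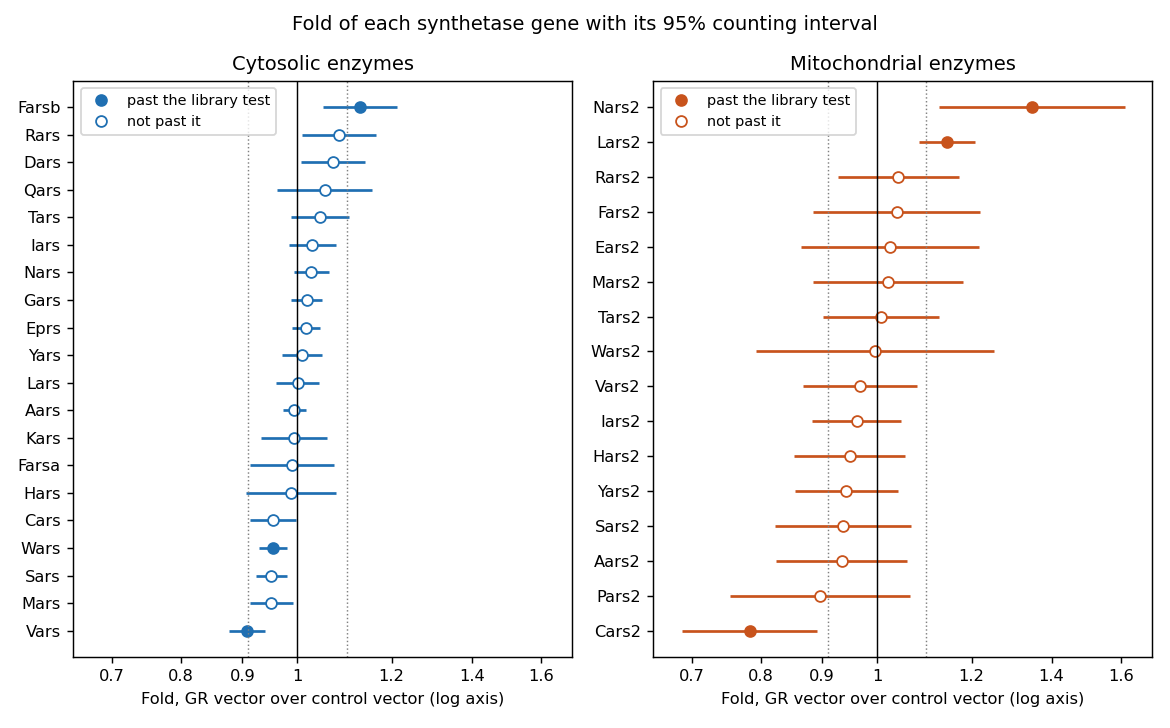
Fold of each synthetase gene, GR vector over control vector (log axis), with its exact 95% counting interval; filled points passed the library test and dotted lines mark a fold of 1.1 each way. Nars2 (1.35) and Cars2 (0.782) lie farthest from 1, and 25 of the 36 intervals hold 1.

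Among the mitochondrial enzymes, Lars2 (ENSMUSG00000035202, chromosome 9, 123366927 to 123462666, plus strand) had 2519 reads in control cells and 2875 in GR cells. Its fold was 1.14 (1.08 to 1.21), with an adjusted p of 1.71e-04 in the exact library test. The value is as large with the GC trend removed (fold 1.15, adjusted p 9.39e-05, exact library test). Only 0.923% of the 31-base stretches of its transcripts occur in another annotated gene. The ribosomal RNA genes of the mitochondrion differed in the same direction: mt-Rnr2 had 3900 and 4439 reads (fold 1.14, 1.09 to 1.19) and mt-Rnr1 3285 and 3696 (fold 1.13, 1.08 to 1.18), and their part in the value of Lars2 was not tested.

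Cars2, the mitochondrial cysteine enzyme, which is also known to make cysteine persulfide, was the member with the lowest fold (ENSMUSG00000056228, chromosome 8, 11513977 to 11550783, minus strand). It had 541 reads in control cells and 422 in GR cells, a fold of 0.782 (0.687 to 0.890) and an adjusted p of 0.0126 in the exact library test. With the GC trend removed the fold was 0.777 and the adjusted p 0.0140 (exact library test). Exons of Naxd on the opposite strand cover 5.83% of its exon bases; Naxd itself had 1203 and 1155 reads (fold 0.963, 0.887 to 1.04). The cytosolic partner Cars had 3958 and 3769 reads (fold 0.955, 0.913 to 0.999) and did not pass the library test (adjusted p 0.357, exact). Its interval held 1 with the GC trend removed (0.930 to 1.02).

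Nars2, the mitochondrial asparagine enzyme (ENSMUSG00000018995, chromosome 7, 96951505 to 97064758, plus strand), had the highest fold. Its reads were 218 in control cells and 293 in GR cells, a fold of 1.35 (1.13 to 1.61) with an adjusted p of 0.0393 in the exact library test. The interval is wide because the gene is sparsely read, and with the GC trend removed the call was lost (fold 1.32, adjusted p 0.113, exact library test). The cytosolic Nars had 6554 and 6719 reads, a fold of 1.03 (0.994 to 1.06).

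The other 13 mitochondrial genes all had intervals that held 1. Pars2 (proline) had 282 and 252 reads, a fold of 0.896 (0.753 to 1.07), past 1.1-fold but within counting error. Next lowest were Aars2 (510 and 475 reads, fold 0.934), Sars2 (serine, 483 and 451, fold 0.936), Yars2 (fold 0.943) and Hars2 (705 and 667, fold 0.949). Iars2 (isoleucine) had 1090 and 1045 reads (fold 0.961) and Vars2 (valine) 661 and 638 (fold 0.968). Closest to 1 were Wars2 (fold 0.996) and Tars2 (threonine, 634 and 637 reads, fold 1.01). Mars2, Ears2, Fars2 (phenylalanine, 304 and 315 reads) and Rars2 had folds of 1.02, 1.03, 1.04 and 1.04. For Iars2, exons of other genes, mainly Rab3gap2 on the opposite strand, cover 24.2% of its exon bases, so its count is uncertain where strand was not used.

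Among the cytosolic enzymes, Vars (ENSMUSG00000007029, chromosome 17, 35000987 to 35016322, plus strand) had the lowest fold. Vars, the valine enzyme, binds the elongation factor complex that takes up charged tRNA. Its reads were 7107 in control cells and 6435 in GR cells, a fold of 0.908 (0.878 to 0.939) with an adjusted p of 7.41e-06 in the exact library test. Its longest transcript is 60.9% G and C, the highest share of any member, and with the GC trend removed the fold was 0.947 and the adjusted p 0.0890 (exact library test), so that the call was lost.

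Wars (chromosome 12, 108860030 to 108894174, minus strand) had 11320 and 10779 reads, a fold of 0.955 (0.930 to 0.981) with an adjusted p of 0.0319 in the exact library test. The GC correction moved it to 0.972 and an adjusted p of 0.394 (exact library test). Sars (serine) was next to the threshold, with 8650 and 8210 reads, a fold of 0.952 (0.923 to 0.981) and an adjusted p of 0.0510 (exact library test). Scaled by total reads, the adjusted p of Sars was 0.0382 (exact library test). The GC correction moved its fold to 0.967 and its adjusted p to 0.385 (exact library test). Mars (methionine) had 4479 and 4251 reads, a fold of 0.952 (0.913 to 0.993), and an interval that left out 1. With the GC trend removed that interval held 1 (0.928 to 1.01).

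Farsb (chromosome 1, 78417975 to 78488897, minus strand), the beta subunit of the phenylalanine enzyme, was the highest cytosolic gene by fold. It had 1478 reads in control cells and 1664 in GR cells, a fold of 1.13 (1.05 to 1.21) with an adjusted p of 0.0344 in the exact library test. With the GC trend removed the fold was 1.11 and the adjusted p 0.139 (exact library test), so that the call was lost. The alpha subunit Farsa had 1203 and 1187 reads and a fold of 0.990. Its interval (0.913 to 1.07) held 1 and overlapped that of Farsb. Exons of Sgpp2 on the opposite strand cover 9.47% of the exon bases of Farsb, and Sgpp2 had 1031 and 1000 reads.

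Of the remaining cytosolic genes, Rars (arginine) had 1505 and 1627 reads (fold 1.08, 1.01 to 1.16) and Dars (aspartate) 2000 and 2138 (fold 1.07, 1.01 to 1.14). Both intervals left out 1, and neither gene passed the library test (adjusted p 0.269 and 0.282, exact). With the GC trend removed both intervals held 1 (0.992 to 1.14 and 0.967 to 1.09), while that of Aars left it out (1.002 to 1.05). Qars, Tars (threonine, 2440 and 2544 reads) and Iars (3839 and 3943) had folds of 1.05, 1.05 and 1.03, all with intervals that held 1. Gars (8657 and 8798 reads, fold 1.02), Eprs (10399 and 10546, fold 1.02), Yars (5226 and 5259, fold 1.01), Lars (4662 and 4654, fold 1.00), Aars (fold 0.995) and Kars (1947 and 1931, fold 0.995) lay within 2% of equal reads. The widest of their intervals, that of Kars, ran from 0.933 to 1.06. Hars had a fold of 0.989 (0.906 to 1.08).

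**Figure D4:**
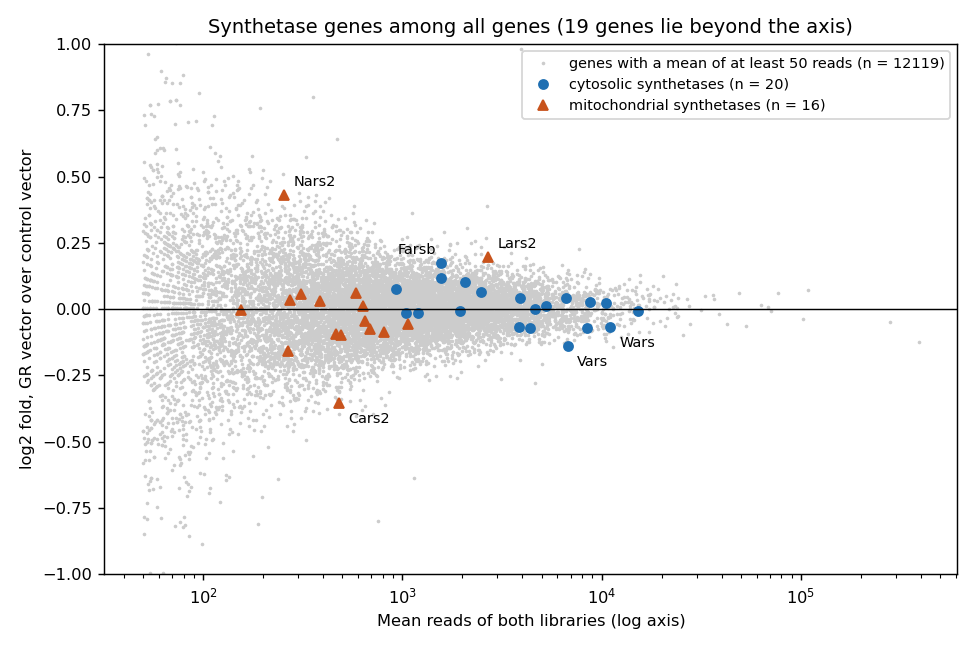
Log2 fold, GR vector over control vector, against the mean reads of both libraries (log axis) for 12119 genes (grey), with the 20 cytosolic (circles) and 16 mitochondrial (triangles) synthetase genes; 19 genes lie beyond the axis. The spread of all genes narrows with depth, and Cars2 (-0.35) and Nars2 (0.43) are sparsely read members, while Lars2 (0.19) and Vars (-0.14) are well read.

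Across the 36 members the log2 fold was lower at a higher GC content of the longest transcript (Pearson's r of -0.40, Spearman's rho of -0.53). Across 12109 genes averaging 50 reads or more the values were -0.24 and -0.34. The points share the same 2 libraries, and both values are descriptions. Median GC content was 49.8% for the cytosolic members and 49.3% for the mitochondrial ones.

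The multisynthetase complex holds 8 of the cytosolic members (Eprs, Iars, Lars, Mars, Qars, Rars, Kars and Dars). Their reads summed to 29740 in control cells and 30046 in GR cells (fold 1.01, 0.997 to 1.03), and 0 of the 8 passed the library test. The 12 cytosolic genes outside it summed to 72927 and 71558 (fold 0.984, 0.974 to 0.994), with 1 higher and 2 lower in that test. Over all genes averaging 50 reads or more, 2.67% were called higher and 1.85% lower. The calls outside the complex (Farsb, Vars and Wars) were lost with the GC trend removed. The median GC content was 47.1% in the complex and 51.6% outside it. Complex members were less abundant per length, with a median of 48.1 RPKM against 94.7 outside the complex in control cells. The 3 scaffold genes of the complex had folds on both sides of 1: Eef1e1 (277 and 324 reads, fold 1.17, 0.996 to 1.38), Aimp1 (1144 and 1125, fold 0.986) and Aimp2 (451 and 402, fold 0.894, 0.780 to 1.02). None of these passed the library test.

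Synthetases fall into 2 structural classes with unrelated catalytic folds. Eprs spans both, since its proline part is of class II, and it was counted with class I (10399 and 10546 reads). The 10 class I cytosolic genes, among them Vars and Wars, had a fold of summed reads of 0.981 (0.969 to 0.993), and the 10 class II genes 1.01 (0.993 to 1.02). Their median GC content was 51.7% and 48.3%, and its part in that difference was not tested. In the mitochondrial set the fold of the sums was 1.02 (0.991 to 1.06) for 9 class I genes and 0.988 (0.940 to 1.04) for 7 class II genes. Lars2 holds many of the mitochondrial class I reads: without it the other 8 genes had 4503 and 4300 reads, a fold of 0.958 (0.918 to 0.999). These 8 include Cars2 (541 and 422 reads), the member with the lowest fold, and a sum without both genes was not taken. The median log2 fold of class I genes was 0.0075 in the cytosolic and -0.0052 in the mitochondrial set. For class II genes it was 0.0099 and -0.076, so the cytosolic medians of the classes were close.

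Genes that work with the synthetases stayed near equal reads as well. For scale, the library test called 4.52% of all genes averaging 50 reads or more. Of 4 mitochondrial genes that modify charged tRNA, 0 passed the library test: Mtfmt, which formylates the initiator methionine, had 289 and 247 reads (fold 0.857, 0.720 to 1.02), Qrsl1 of the amidotransferase 311 and 353 (fold 1.14, 0.975 to 1.33), and Gatc 583 and 590. Of the 4 mitochondrial elongation factors 0 passed, with Tsfm at 640 and 587 reads (fold 0.920) and Tufm at 1050 and 1088 (fold 1.04). Of the 7 cytosolic elongation factors 1 was lower in the library test, Eef1a2 (7565 and 7082 reads, fold 0.939, adjusted p 0.0115, exact), a call lost with the GC trend removed (adjusted p 0.705, exact). Eef1a1, which carries charged tRNA to the ribosome, had 68154 and 68307 reads (fold 1.01).

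Among 8 counted relatives of the synthetases 0 passed the library test. Pstk and Sepsecs, which turn serine loaded by Sars into selenocysteine, had 127 and 139 reads and 1150 and 1221 reads (fold 1.06). Dtd2, which clears wrongly loaded tRNA, had 413 and 372 (fold 0.903). Of 11 tRNA maturation and export genes 0 passed the library test and 8 lay above 0 and 3 below. The largest folds there were 1.12 for Trmt10c, a subunit of mitochondrial RNase P (514 and 573 reads), and 1.101 for Trnt1, which adds the CCA end (827 and 908). Xpot, the exporter of tRNA, had the most reads, 4830 and 4960.

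The regulators and targets of the amino acid response are set beside the synthetases because ATF4 raises many cytosolic synthetase genes in many cell types. Reads do not measure ATF4 protein or its activity, and its action on the members was not tested. Atf4 itself had 9485 reads in control cells and 9526 in GR cells, a fold of 1.01 (0.979 to 1.04). Of 9 measured sensors and regulators, the library test called Cebpg, a partner of ATF4, higher (4618 and 4929 reads, fold 1.07, adjusted p 0.0395, exact) and Atf5 lower (10994 and 10089, fold 0.920, adjusted p 7.82e-07, exact). Both calls were lost with the GC trend removed (adjusted p 0.577 and 0.148, exact). Eif2s1, the translation factor whose phosphorylation starts the response, had 1522 and 1657 reads (fold 1.09, 1.02 to 1.17).

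Of 21 counted ATF4 targets of amino acid supply, 10 lay above 0 and 11 below, with a median log2 fold of -0.01. By the counting interval alone, 3 of the 21 were higher and 6 lower, beside 18.7% of genes averaging 50 reads or more either way. Intervals are narrower in deeply read genes, and the part of depth in these counts was not tested. With the GC trend removed, the log2 folds of the 6 ran from -0.062 (Nupr1) to -0.013 (Slc3a2). Those of the 3 ran from 0.049 (Cth) to 0.10 (Slc7a11). The library test called 0 higher and 1 lower, the leucine transporter gene Slc7a5 (21275 and 20290 reads, fold 0.956, adjusted p 9.16e-04, exact), and this call too was lost with the GC trend removed (adjusted p 0.624, exact). The cystine transporter gene Slc7a11 had 1448 and 1618 reads (fold 1.12, 1.043 to 1.204) and the glutamine transporter gene Slc1a5 199 and 172 (fold 0.867, 0.703 to 1.07). Asns, which makes asparagine, had 8123 and 8286 reads (fold 1.02).

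**Figure D5:**
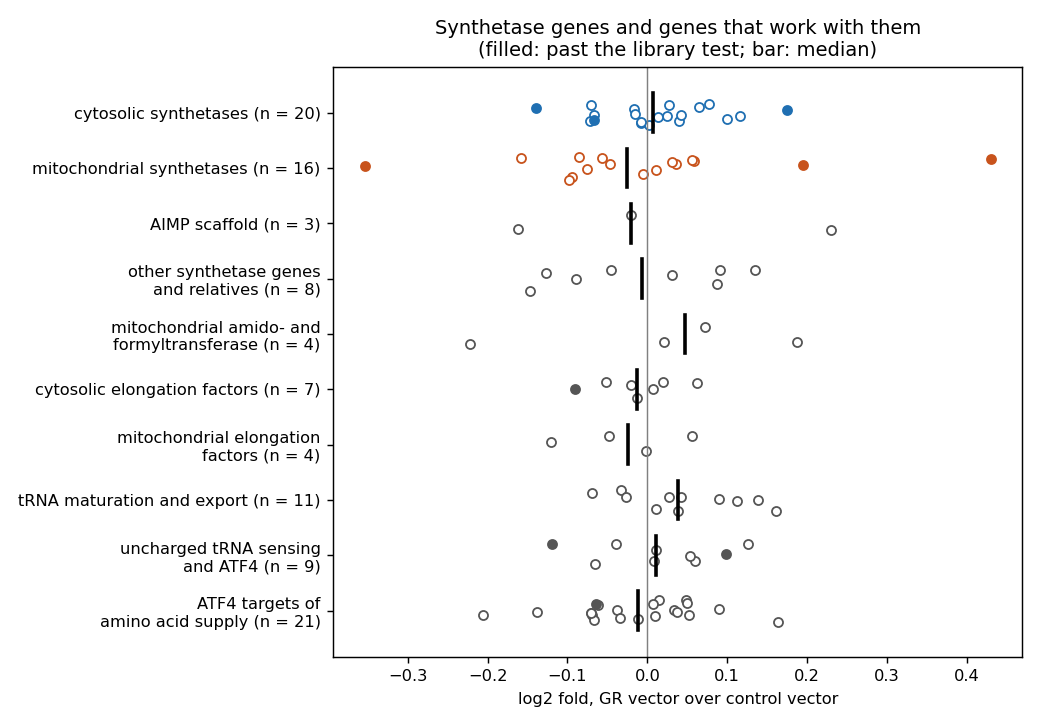
Log2 fold, GR vector over control vector, of each gene in the synthetase sets and in 8 lists of genes that work with them (genes averaging 50 reads or more). Filled points passed the library test and the bar is the median; medians run from -0.03 for the mitochondrial synthetases to 0.05 for the mitochondrial amido- and formyltransferase genes.

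The authors' deposited enrichment report holds a set for aminoacyl-tRNA biosynthesis with 44 genes. In that deposited report its enrichment score was 0.650 and its normalized score 1.00, the 136th of 307 sets by normalized score. Its nominal p was 0, its FDR q 0.960 and its family-wise p 1 there, and 0 of the 307 sets had a q under 0.25. The deposited report marks 100% of the set's genes as leading the score, so it names no subset of synthetases. The kind and number of permutations were not given in the sources used here.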

How the data were processed

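The authors deposited 1 table with a library-scaled signal for each gene, in effect scaled read counts, for both libraries, with a log2 fold change and p-values that the authors deposited beside it, and a gene set report with enrichment scores, which the authors deposited too. The submitters' processing notes name DESeq2 1.10.1; aligner, counting tool, strand handling and build were not given in the sources used here. Divided by the value of a single read in its library, 100% of values came out whole (within 0.05 reads), so whole reads were recovered. The design had foreseen that 1 library per group allows no replicate test. Libraries were scaled with TMM (edgeR 4.0.16). Folds carry exact 95% Clopper-Pearson intervals. The library test (scipy 1.17.1) was checked on simulated libraries that held counting error only, so that check covers no other variation between libraries. Between the deposited libraries the library test called 585 of 21542 genes. PCR copies are not separate molecules, so intervals cover counting error only. Deposited coordinates equalled GENCODE M21 (GRCm38) for 33 of 36 members; M21 gave transcript length, GC content and shared 31-mers, and 0 members shared 25% or more (highest 23.6%, Iars2). The GC trend was a lowess fit (fraction 0.3). The members and lists were chosen with earlier results of these data known. Every member was named; fuller values went to members past the library test or 1.1-fold and to the 3 highest and 3 lowest per length of each class, and from other lists to the largest changes and the most read gene. A gene and a promoter stretch are not reported here.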

Additional observations from a re-analysis of the deposited data

How the results depend on the processing

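Scaling by total reads or by DESeq2 size factors kept the counts past 1.1-fold at 3 higher and 3 lower and gave 3 higher and 4 lower in the library test, Sars being the added gene. At 500 mean reads or more, 1 member was lower than 1.1-fold, and at a fold of 1.2, 1 was higher (Nars2) and 1 lower (Cars2). With the GC trend removed, the library test called 1 higher and 1 lower (1.06% and 0.817% of genes averaging 50 reads or more), and the log2 folds of Farsb (0.15), Vars (-0.08), Wars (-0.04) and Nars2 (0.40) kept their direction without passing; beyond that correction itself, the cause was not tested. The authors' deposited adjusted p called 0 and 0. Without Lars2, a setting chosen after seeing the data, the fold of summed mitochondrial reads was 0.970 in place of 1.01. Cars2, the member with the lowest fold, stayed in that sum. With the union of exons as length, the ratio of median levels was 6.70 in control cells and 7.22 in GR cells; with coding transcripts it was 7.92 and 7.91. With both lengths 17 of 17 pairs kept the cytosolic gene higher, while the order of single genes changed. No member reached the limit on shared 31-mers, so leaving such members out changed nothing. No paired analysis was possible because each group has 1 library. With 1 library a group, no replicate could be left out.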
